A study of Mus musculus with 28 samples.

Results

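The tachykinin system was read as 6 genes, the precursor genes *Tac1*, *Tac2* and *Tac4* and the receptor genes *Tacr1*, *Tacr2* and *Tacr3*, chosen as the whole mouse family from 21951 protein-coding genes of GENCODE vM21. At each gene, the listed H3K4me3 peaks and H3K27me3 islands were read at the promoter (2 kb upstream to 1 kb downstream of the TSS, the annotated 5′ end), over the gene body and in the 50 kb on either side. The lists came from ICuRuS, in which INTACT isolates tagged nuclei and CUT&RUN (CnR) profiles histone modifications in them. The nuclei were striatal and came from male and female C57BL/6J mice. Their age was about 8 weeks by the methods of the study, while its results text gives a wider range. All mice carried R26-CAG-LSL-Sun1-sfGFP, a Cre-dependent tag of the nuclear envelope. Sun1-sfGFP;A2a-cre mice gave A2a nuclei, of indirect pathway medium spiny neurons (MSNs), and Sun1-sfGFP;Drd1-cre mice gave D1 nuclei, of direct pathway MSNs, so that each population is what its Cre driver tagged. The 4 lists pool 8 of the 28 samples of the study, 2 replicates for each cell type and mark, so no value below has a spread between mice and no difference between A2a and D1 was tested across mice.

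Tachykinins are short amidated neuropeptides cut from larger precursors, and they act on G protein-coupled receptors that couple through Gq to phospholipase C. In the striatum, *Tac1*, which encodes substance P and neurokinin A, is a classical marker of direct pathway MSNs, and *Tacr1*, which encodes the substance P receptor NK1R, is known from cholinergic and somatostatin interneurons. H3K4me3 marks the start sites of active and poised genes, H3K27me3 is deposited by Polycomb repressive complex 2 over silenced genes, and promoters with both marks are called bivalent.

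The A2a H3K27me3 list was the larger, with 60191 islands against 45760 in D1 and a mean of 73.4 against 42.8 reads per kb of island, and the depth of the libraries is not known from the lists. For H3K4me3, A2a had 22551 peaks and D1 20080. Reads and fold enrichments are not normalized between lists, so members were also placed by percentile, the share of the entries of a list at or below the member's entry. The source name of the D1 H3K27me3 samples reads A2a where their title and cell type read D1, and they were taken as D1. Of 4 genes typical of indirect pathway MSNs (*Adora2a*, *Drd2*, *Gpr6*, *Penk*), 2 had a promoter island in A2a, of 2.6 to 3.4 kb, and 4 in D1, of 7.8 to 45.0 kb. The 4 genes typical of direct pathway MSNs (*Drd1*, *Pdyn*, *Isl1*, *Eya1*) had promoter islands of 16.8 to 39.6 kb in A2a and of 1.0 to 10.4 kb in D1. No promoter H3K4me3 peak was listed at any of 3 cholinergic markers, 4 other interneuron markers or 3 astrocyte markers in either list. At oligodendrocyte markers 2 of 3 had a peak in A2a and 1 of 3 in D1, and at microglial markers 1 of 3 in A2a and 0 of 3 in D1. A peak within *Xist* was listed in A2a alone, and 2 peaks lay on chromosome Y in A2a against 7 in D1, so the lists differed in sex-linked entries, and the part of this in the members' values was not tested.

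All 6 genes lie on the plus strand of GRCm38 (mm10). The 250 bases before the annotated 5′ end are shown for the 3 genes that carried both marks at the promoter in both lists, and for *Tac2*, which carried both in A2a alone. The 250 bases around the summit of the A2a H3K4me3 peak are shown for *Tac2* and *Tac4*, whose peaks lay upstream of the start site. Capitals mark CpG dinucleotides, the cytosines that can be methylated in mammals.
Tac1 promoter, chr6:7554629-7554878, plus strand: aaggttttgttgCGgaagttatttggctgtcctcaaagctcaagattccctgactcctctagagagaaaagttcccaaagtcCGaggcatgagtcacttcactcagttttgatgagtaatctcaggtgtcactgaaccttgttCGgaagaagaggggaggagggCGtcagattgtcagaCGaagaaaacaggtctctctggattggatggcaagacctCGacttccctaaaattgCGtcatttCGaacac
Tac2 promoter, chr10:127724228-127724477, plus strand: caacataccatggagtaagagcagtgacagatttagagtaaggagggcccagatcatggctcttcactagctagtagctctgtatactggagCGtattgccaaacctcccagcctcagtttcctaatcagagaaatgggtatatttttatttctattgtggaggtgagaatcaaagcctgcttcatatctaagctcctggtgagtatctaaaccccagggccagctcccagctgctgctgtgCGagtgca
Tac2 upstream peak, chr10:127721802-127722051, plus strand: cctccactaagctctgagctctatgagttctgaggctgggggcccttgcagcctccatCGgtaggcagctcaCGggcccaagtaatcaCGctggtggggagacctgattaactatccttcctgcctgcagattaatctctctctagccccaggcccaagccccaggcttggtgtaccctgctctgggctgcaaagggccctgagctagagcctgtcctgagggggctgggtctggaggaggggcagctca
Tac4 upstream peak, chr11:95259006-95259255, plus strand: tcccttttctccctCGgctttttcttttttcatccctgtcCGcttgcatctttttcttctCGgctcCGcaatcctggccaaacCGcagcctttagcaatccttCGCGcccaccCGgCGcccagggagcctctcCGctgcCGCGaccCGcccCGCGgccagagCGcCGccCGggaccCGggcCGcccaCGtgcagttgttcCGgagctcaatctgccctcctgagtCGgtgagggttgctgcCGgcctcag
Tacr1 promoter, chr6:82402084-82402333, plus strand: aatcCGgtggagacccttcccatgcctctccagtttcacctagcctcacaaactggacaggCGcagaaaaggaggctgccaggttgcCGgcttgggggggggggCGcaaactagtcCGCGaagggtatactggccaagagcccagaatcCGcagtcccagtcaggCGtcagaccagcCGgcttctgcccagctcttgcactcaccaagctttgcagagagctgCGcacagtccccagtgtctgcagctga
Tacr3 promoter, chr3:134828757-134829006, plus strand: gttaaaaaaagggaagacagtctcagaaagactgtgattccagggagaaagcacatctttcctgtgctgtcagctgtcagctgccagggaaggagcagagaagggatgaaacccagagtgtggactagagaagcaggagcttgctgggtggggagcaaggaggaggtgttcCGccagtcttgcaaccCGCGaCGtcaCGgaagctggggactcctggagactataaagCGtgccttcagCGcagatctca
The stretch at the *Tac4* upstream summit held 24 CpGs at 0.95 of the number expected from its base composition, the highest of the 6 sequences. The *Tac2* promoter stretch held 2 CpGs (0.14 of expectation) and the *Tac2* upstream summit 3 (0.13 of expectation). *Tac1*, *Tacr1* and *Tacr3* lay between these, with 8, 10 and 7 CpGs (0.59, 0.43 and 0.40 of expectation).

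*Tac1* (ENSMUSG00000061762.12, chr6:7554879-7565834) had an H3K4me3 peak over its start in both lists. The A2a peak ran from −11 to 2266 bp of the TSS and the D1 peak from −159 to 2344 bp, and the D1 peak held the whole A2a peak. The peaks overlapped exons 1 to 3 in A2a and exons 1 to 4 in D1 of the 6 exons of its lowest-numbered GENCODE transcript. The fold enrichment was 4.88 in A2a and 4.08 in D1, whereas the −log10 q of 24.4 in A2a was below that of 45.1 in D1. By −log10 q the peak stood lower in A2a (percentile 35.4) than in D1 (percentile 48.1), and by fold enrichment it stood higher in A2a (percentile 26.3) than in D1 (percentile 17.8), so the direction depended on the measure. Among 12204 protein-coding genes with a promoter peak in both lists, the difference by −log10 q had a median of 3.83 percentile points in favour of A2a and ran from −15.2 to 20.3 points between its 5th and 95th percentiles. The *Tac1* difference of −12.7 points lay inside that range, with 848 genes below it.

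The H3K27me3 islands over *Tac1* differed in extent and in mean reads per kb. The A2a island ran from −49.5 to 11.5 kb of the TSS, past the end of the gene, and covered all 6 exons. The D1 promoter island ran from −478 to 2321 bp and covered exons 1 to 3. Of the D1 H3K4me3 peak 99.1% was under it, and it began 319 bp upstream of that peak. The A2a island held 9144 reads (8958 to 9333, exact 95% Poisson interval, counting error only) over 61.0 kb, which is 150 reads per kb, and the D1 island held 121 reads (100 to 145) over 2.8 kb, which is 43.2 reads per kb. These are means over separately called islands of unequal extent, not over 1 region. Their ratio (A2a over D1) was 3.47, or 2.02 once each list was divided by its mean reads per kb. Over 3132 protein-coding genes with a promoter island in both lists the density ratio had a median of 1.88 and ran from 1.46 to 2.34 between its 10th and 90th percentiles, and *Tac1* stood at percentile 99.6. The D1 island was at 1.01 times the mean density of D1 islands, and the A2a island at 2.04 times the A2a mean. Each mean is all reads over all island length, so long dense islands weigh most in it. The median island had 37.2 reads per kb in D1 and 62.5 in A2a, so both *Tac1* islands were above the median of their list. The difference in promoter island length, 58.2 kb, was the 8th largest A2a excess of all protein-coding genes.

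Around *Tac1* the A2a list continued downstream of the gene with 4 more islands of 14.2, 7.2, 3.6 and 5.2 kb, at 75.4, 62.2, 51.4 and 51.3 reads per kb. The island over the gene was thus the densest, at 2.04 times the list mean, and the 2 islands farthest from it were at 0.700 times the mean. The D1 list had 1 further island, of 2.2 kb and 93 reads (75.1 to 114), starting at −8.08 kb. Both D1 islands lay inside the A2a island, where they covered 5.0 of its 61.0 kb (8.20%). No D1 island was listed downstream of the gene within 50 kb. No other protein-coding gene starts within 50 kb of *Tac1*, and the annotation has only the processed pseudogene *Gm44048* in that stretch, under the A2a island and under no D1 island.

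*Tac2* (ENSMUSG00000025400.11, chr10:127724478-127731768) encodes the precursor of neurokinin B, known from hypothalamic neurons that control reproduction. It had no H3K4me3 peak over its start site in either list. In A2a a peak of 1116 bp lay from −3085 to −1970 bp, between the end of *Myo1a* and the TSS, and only 31 bp of it fell in the promoter window. This A2a peak had a fold enrichment of 7.23 and a −log10 q of 19.9 (percentile 32.1). In D1 a peak of 300 bp lay inside the same stretch, from −2654 to −2355 bp, with a fold enrichment of 3.73 and a −log10 q of 4.74 (percentile 6.51), and it missed the promoter window by 355 bp. Both lists thus had a peak at this upstream stretch, and whether *Tac2* counted as marked rested on where the window ended.

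H3K27me3 was listed at *Tac2* in A2a alone. An island of 3.0 kb with 175 reads (150 to 203) ran from −4277 to −1278 bp, touched 3 exons at the 3′ end of *Myo1a* and held the whole upstream H3K4me3 peak. A further island of 5.4 kb with 335 reads (300 to 373) began 4.32 kb downstream of the TSS and ran past the end of the gene. Another, of 2.0 kb with 112 reads (92.2 to 135), lay at the shared promoter of *Rdh1* and *Rdh16f1*. Their densities of 58.3, 62.0 and 56.0 reads per kb were all below the A2a list mean (0.795, 0.845 and 0.763 times). In D1 no island was listed over the gene or within 50 kb, and the nearest lay 118 kb from the promoter window. The absence of an entry means that none passed the caller's threshold, and the lists do not give the reads below it.

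*Tac4* (ENSMUSG00000020872.4, chr11:95261529-95269265), which encodes hemokinin-1, a tachykinin known from immune cells, had an H3K4me3 peak upstream of its start in both lists. The A2a peak lay from −2859 to −1827 bp with a fold enrichment of 9.89 and a −log10 q of 42.4, and the D1 peak from −2717 to −1828 bp with a fold enrichment of 7.86 and a −log10 q of 25.3. The summits were 4 bp apart, the closest of the 4 genes with a promoter peak in both lists. The percentiles were 44.2 in A2a and 38.0 in D1, and the difference of 6.21 points stood at percentile 59.3 of all genes with a promoter peak in both lists, and was 2.05 points among promoter peaks and 16.4 by fold enrichment. As at *Tac2*, the peak reached only the edge of the promoter window, by 174 bp in A2a and 173 bp in D1. The peaks lay in no annotated gene.

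No island was listed at the promoter or over the body of *Tac4* in either list. The islands of its neighbourhood all lay upstream, 6 in A2a and 3 in D1. The A2a islands ran from 2.0 to 13.6 kb and held 122 to 1100 reads, and the nearest ended at −8.53 kb. The D1 islands of 3.2 to 4.4 kb held 111 to 149 reads, and the nearest ended at −23.3 kb. Of the 10.9 kb covered in D1, 92.6% was also covered in A2a, and of the 30.7 kb covered in A2a, 32.8% was also covered in D1.

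**Figure D1:**
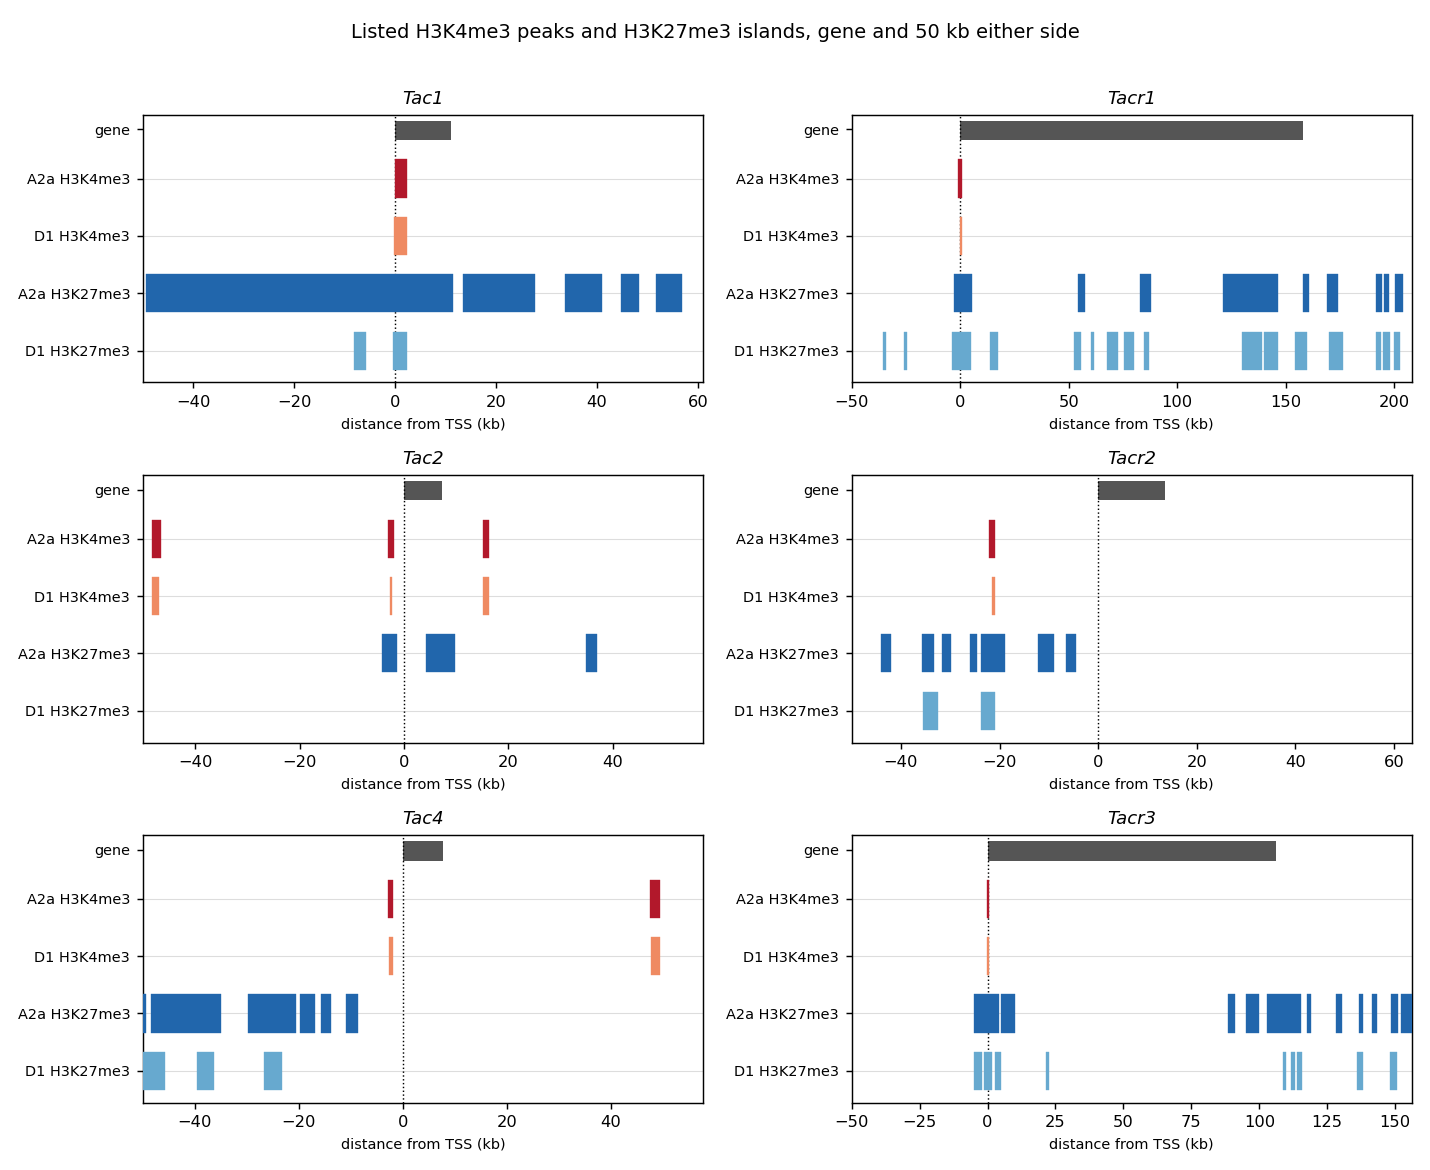
Positions of listed H3K4me3 peaks (red, A2a; orange, D1) and H3K27me3 islands (dark blue, A2a; light blue, D1) over each gene (grey bar) and 50 kb on either side, drawn to scale by distance from the TSS in kb. The 61.0 kb A2a island over *Tac1* stands beside D1 islands of 2.2 and 2.8 kb, and *Tacr1* had 9 islands in A2a and 16 in D1.

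*Tacr1* (ENSMUSG00000030043.11, chr6:82402334-82560104) carried both marks at the promoter in both lists. The A2a H3K4me3 peak ran from −828 to 941 bp and the D1 peak from −209 to 941 bp, ending at the same base, and both overlapped exons 1 to 2 of the 6 exons of its lowest-numbered transcript. The fold enrichments were close, 6.02 in A2a and 5.56 in D1, while the −log10 q was 86.0 in A2a and 31.2 in D1. In percentiles this was 57.3 in A2a and 41.3 in D1, and the difference of 16.0 points stood at percentile 88.7 of all genes with a promoter peak in both lists. By fold enrichment the difference was 2.19 points.

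The promoter islands of *Tacr1* were of like length and place in the lists. The A2a island of 8.4 kb ran from −2.93 to 5.47 kb of the TSS, and the D1 island of 8.8 kb from −3.73 to 5.07 kb, so that 95.2% of the A2a island was under the D1 island. The A2a island held 669 reads (619 to 722), at percentile 90.2 of its list and 62.2 of promoter islands, and the D1 island 536 reads (492 to 583), at percentile 96.2 of its list and 77.4 of promoter islands. Of the 3 genes with a promoter island in both lists, *Tacr1* was the only one whose D1 island was the longer and the higher in rank. Its density was 79.6 reads per kb in A2a and 60.9 in D1, a ratio of 1.31, which became 0.762 once each list was divided by its mean, and this ratio stood at percentile 3.90 of the 3132 genes.

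Over the 158 kb gene and its flanks *Tacr1* had 9 islands in A2a and 16 in D1. All 9 A2a islands overlapped a D1 island, and 6 of the 16 D1 islands overlapped none in A2a. These 6 held 46 to 160 reads each, and 2 of them lay upstream of the gene, starting at −35.7 and −25.7 kb, where A2a had none. In the 3′ part of the gene, A2a had a single island of 25.2 kb with 1601 reads (1524 to 1681), and D1 had islands of 9.4 kb with 345 reads (310 to 383) and of 6.6 kb with 240 reads (211 to 272) in its place. In all, 57.8 kb were covered in A2a and 68.2 kb in D1. The difference of −10.4 kb (A2a minus D1) was the 151st largest in favour of D1 of 21951 genes, and 7.05% of genes were more covered in D1 than in A2a. That rank is by kb and not scaled to the stretch read, which was 258 kb at *Tacr1*. As shares of that stretch the values were 22.4% in A2a and 26.5% in D1. It was −6.6 kb with islands of at least 2 kb alone and −1.8 kb with flanks of 100 kb.

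*Tacr2* (ENSMUSG00000020081.5, chr10:62252438-62265990) encodes NK2R, the neurokinin A receptor known from smooth muscle of the gut. It had neither mark at the promoter and no island over its body in either list, and it was the only member of the family of which this held. The nearest A2a island, of 2.0 kb with 107 reads (87.7 to 129), ended at −4.44 kb. The H3K4me3 peak of its neighbourhood was that of *Tspan15*, whose TSS lies 21.2 kb upstream on the other strand, with a −log10 q of 22.0 in A2a and 6.13 in D1. An island over the *Tspan15* promoter held 571 reads (525 to 620) over 5.0 kb in A2a and 166 reads (142 to 193) over 3.0 kb in D1. In A2a that island was the densest of the neighbourhood, at 114 reads per kb or 1.56 times the list mean. All islands of the *Tacr2* neighbourhood, 7 in A2a and 2 in D1, lay upstream of the gene, and neither list had an entry between its TSS and 50 kb past its end.

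*Tacr3* (ENSMUSG00000028172.5, chr3:134829007-134934579) encodes NK3R, the receptor of neurokinin B. Its H3K4me3 peaks were almost coextensive, from −318 to 650 bp in A2a and from −306 to 644 bp in D1, over exon 1. The fold enrichment was 9.15 in A2a and 6.07 in D1, and their ratio of 1.51 stood at percentile 96.9 of the genes with a promoter peak in both lists, where the median was 1.03. The −log10 q was 50.9 (percentile 47.2) in A2a and 18.9 (percentile 32.8) in D1. This difference of 14.5 points stood at percentile 85.5 of the same genes, and was 7.93 points among promoter peaks and 33.3 by fold enrichment.

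At the *Tacr3* promoter the A2a list had a single island of 9.2 kb with 817 reads (762 to 875), from −5.01 to 4.19 kb of the TSS. In D1 the same ground held 3 islands of 3.0, 3.0 and 2.4 kb, of which the middle one, with 163 reads (139 to 190), lay over the start site. These 3 islands covered 7.60 of the 9.2 kb (82.6%). The island over the start site itself was 6.2 kb longer in A2a, and 5.2 kb longer where islands within 5 kb were merged in both lists. The densities were 88.8 reads per kb in A2a and 54.3 in D1, a ratio of 1.63, which was 0.953 relative to the list means and stood at percentile 22.8. Over the gene and its flanks, 11 islands were listed in A2a and 9 in D1. Toward the 3′ end A2a had islands of 2.6, 4.8 and 12.2 kb, beginning 88394, 94994 and 102994 bp downstream of the TSS. The last of them ran past the end of the gene, to 115193 bp. D1 had islands of 1.2, 1.2 and 1.8 kb from 108794 to 115593 bp, past the end of the gene. Farther downstream, A2a had islands of 1.6 to 6.2 kb, and D1 had islands of 2.4 kb beginning at 135794 and 148194 bp. The sums were 47.4 kb in A2a and 18.4 kb in D1, and of the D1 length 82.6% was also covered in A2a.

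**Figure D2:**
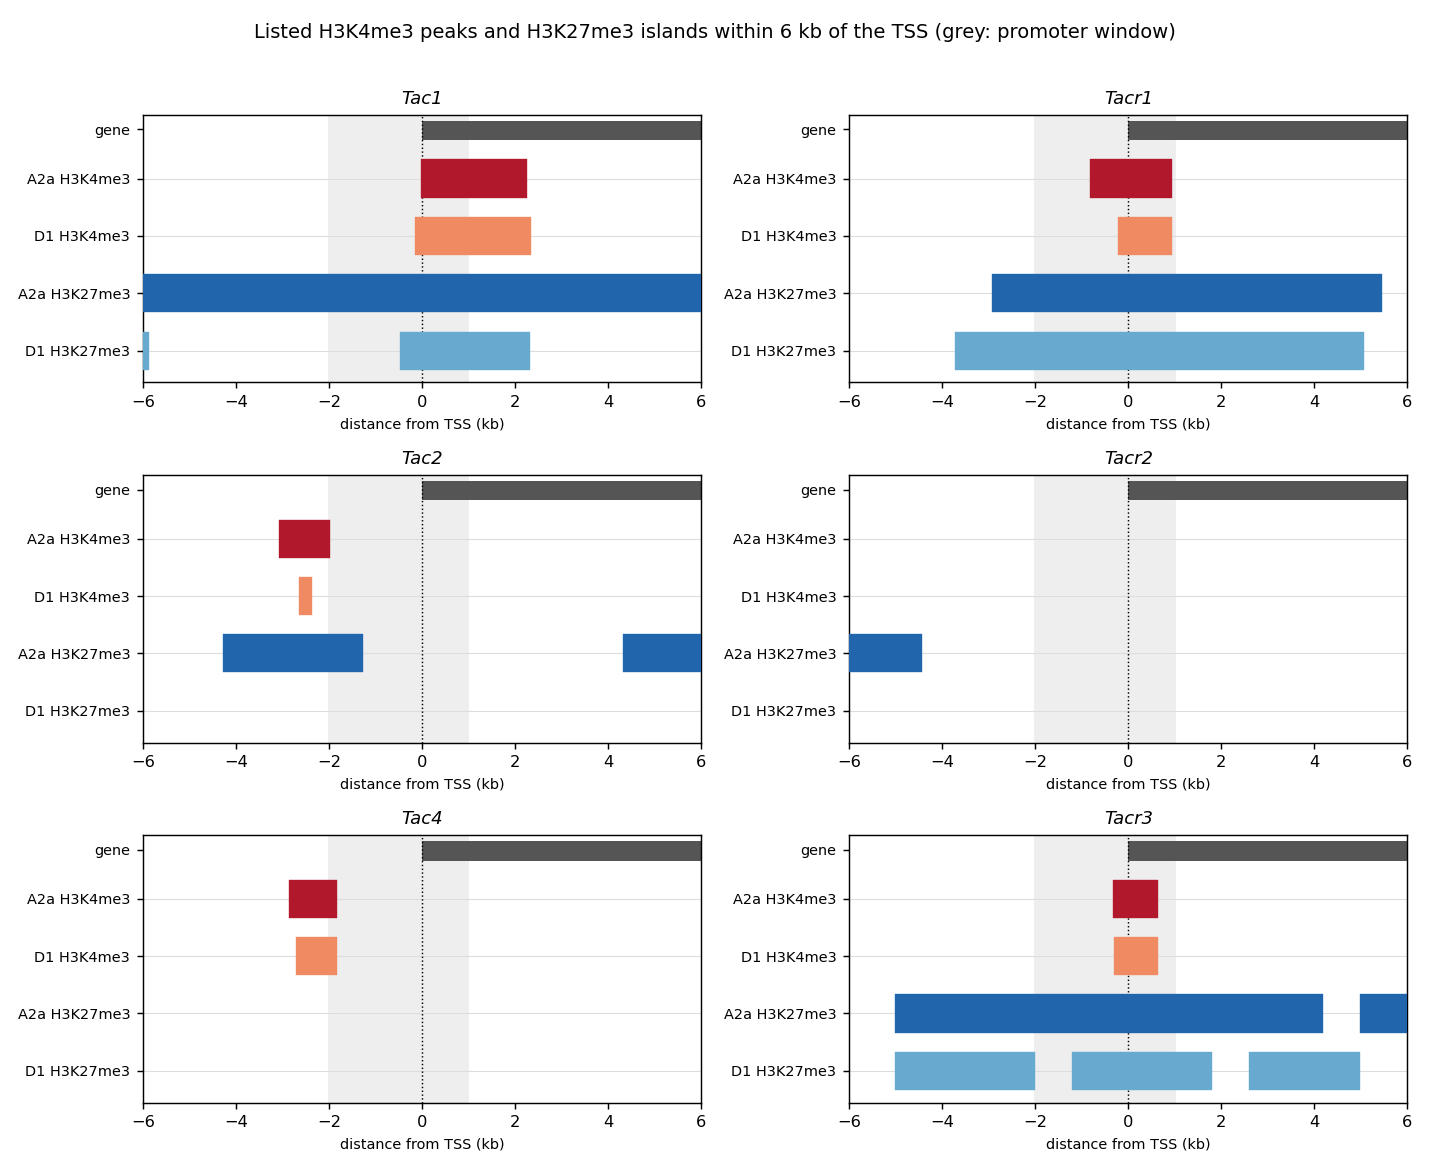
The same peaks and islands within 6 kb of the TSS, by distance in kb, with the promoter window shaded grey. H3K4me3 peaks lay over the start of *Tac1*, *Tacr1* and *Tacr3* and upstream of it at *Tac2* and *Tac4*, and at *Tacr3* 3 D1 islands lay where A2a had 1 island of 9.2 kb.

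Counted over the family, an H3K4me3 peak overlapped the promoter of 5 of 6 genes in A2a, where 58.2% of protein-coding genes had one, and of 4 of 6 in D1, where 55.8% did. An H3K27me3 island overlapped the promoter of 4 of 6 in A2a (21.6% of protein-coding genes) and of 3 of 6 in D1 (15.3%). Both marks were at the promoter of 4 of 6 in A2a (9.53% of protein-coding genes) and of 3 of 6 in D1 (5.56%). H3K4me3 alone was at 1 of 6, *Tac4*, in A2a (48.7%) and in D1 (50.2%). An island lay over the body of 4 of 6 in A2a (27.7%) and of 3 of 6 in D1 (21.0%). The genes with an island over the body were the ones with an island at the promoter, *Tac1*, *Tacr1* and *Tacr3* in both lists and *Tac2* in A2a. The promoter window reaches 1 kb into the gene, so at *Tac1*, *Tacr1* and *Tacr3* the promoter island itself counted for both. At *Tac2* separate islands were counted. The promoter island was longer in A2a at 3 of 6, *Tac1*, *Tac2* and *Tacr3*, and at 18.7% of protein-coding genes. Genes without a promoter island in A2a cannot be longer there and lower that share. Of the 4752 protein-coding genes with a promoter island in A2a, 4112 had the longer one in A2a. The family had 3 of 4 on that footing, so no A2a excess of the family is read from this count. With 6 genes these are descriptions, and they were not tested against other lists.

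With genes without an entry set to 0, the median percentile of the strongest promoter H3K4me3 peak was 39.8 over the 6 genes in A2a and 35.4 in D1, against 44.5 and 35.7 over all protein-coding genes. The median percentile of the strongest promoter island was 64.0 in A2a and 30.2 in D1, against 0 in both lists over all protein-coding genes. That 0 follows from the setting, since only 21.6% of protein-coding genes had a promoter island in A2a and 15.3% in D1. The D1 value of 30.2 is no gene's own rank, and lies between 0 and the 60.3 of *Tac1*. Where a promoter peak was listed, the members' percentiles of 32.1 to 57.3 lay below the medians of protein-coding genes with such a peak, 72.1 in A2a and 71.0 in D1. Ranked among the 12773 genes with a promoter peak in A2a, *Tac2* stood at percentile 7.38, *Tac1* at 8.86, *Tac4* at 13.8, *Tacr3* at 16.2 and *Tacr1* at 27.1. Among the 12240 in D1, *Tacr3* stood at 8.88, *Tac4* at 11.7, *Tacr1* at 13.9 and *Tac1* at 19.7. The H3K27me3 ranks were spread more widely, from 37.8 at *Tac2* to 99.9 at *Tac1* in A2a. Ranked by reads among promoter islands alone, *Tac1* stood at percentile 98.4 in A2a and 28.1 in D1, *Tacr1* at 62.2 and 77.4, *Tacr3* at 68.2 and 39.5, and *Tac2* at 15.9 in A2a. Among the 4752 protein-coding genes with a promoter island in A2a, 77 had a longer one than *Tac1*, and among the 3352 in D1, 2571 had.

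**Figure D3:**
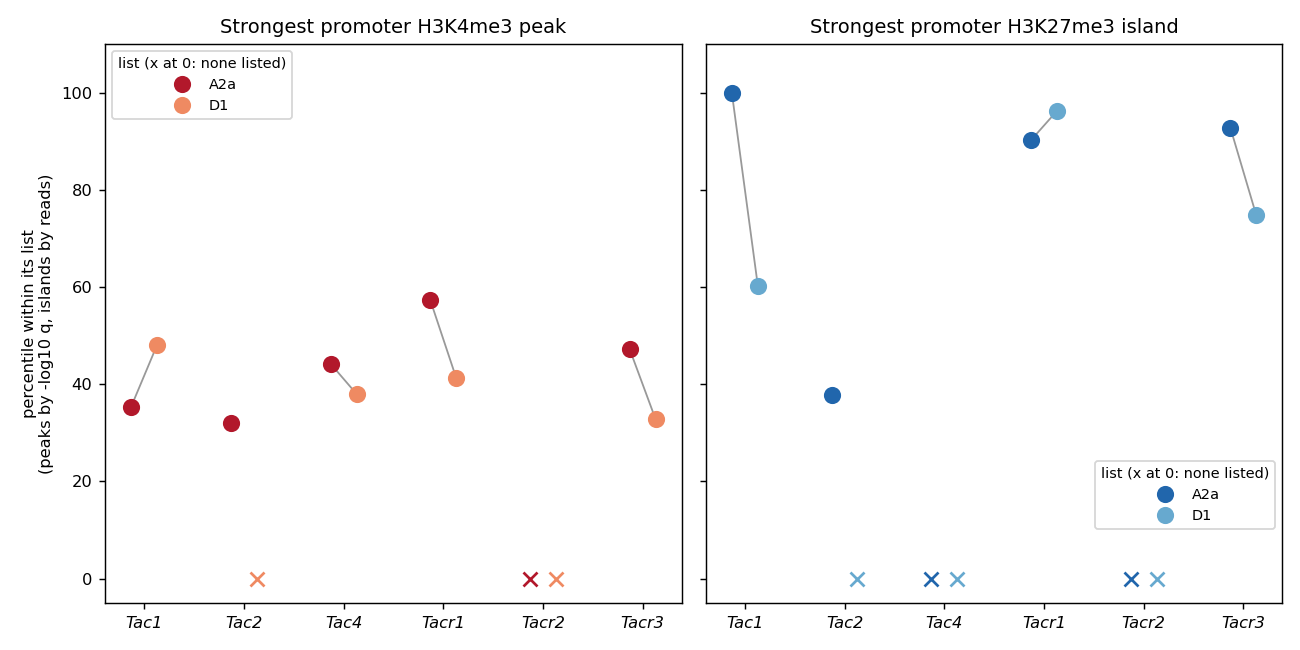
Percentile of the strongest promoter H3K4me3 peak (left, by −log10 q) and H3K27me3 island (right, by reads) of each gene within its own list, with a cross at 0 where none was listed and lines joining A2a to D1. *Tac1* went from 99.9 to 60.3 in H3K27me3 and from 35.4 to 48.1 in H3K4me3, and *Tacr1* was the only gene with the higher H3K27me3 percentile in D1, 96.2 against 90.2.

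The covered share of the gene and 50 kb on either side differed most at *Tac1*, with 82.2% in A2a against 4.51% in D1. The shares in A2a and D1 were 9.69% and 0% at *Tac2* and 28.5% and 10.1% at *Tac4*. Of the receptors, *Tacr1* had 22.4% in A2a against 26.5% in D1, with 15.7% and 5.28% at *Tacr2* and 23.0% and 8.95% at *Tacr3*. The median over protein-coding genes was 3.87% in A2a and 1.20% in D1, and all 6 genes were above it in A2a and 5 in D1. Coverage was larger in A2a at 5 of 6 genes, which is read against 60.4% of protein-coding genes and against the larger A2a list. Of the other protein-coding genes, 7.05% were more covered in D1 and 32.6% were equal, while no member was equal. Most genes that differed thus went the way of A2a, and the count of 5 is not read as an excess of the family. *Tac1* ranked 85th and *Tacr3* 882nd of 21951 genes by A2a excess, at 86.2 and 29.0 kb. These ranks are by kb and not scaled to the stretch read, which was 111 kb at *Tac1* and 206 kb at *Tacr3*. *Tac4* (19.8 kb), *Tacr2* (11.8 kb) and *Tac2* (10.4 kb) ranked 1891st, 4019th and 4660th. With only as many of the strongest A2a islands as D1 has, an alternative chosen after seeing the data, the excess was 86.2 kb at *Tac1*, 21.8 kb at *Tacr3*, 15.0 kb at *Tac4*, 8.4 kb at *Tac2* and 4.6 kb at *Tacr2*.

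**Figure D4:**
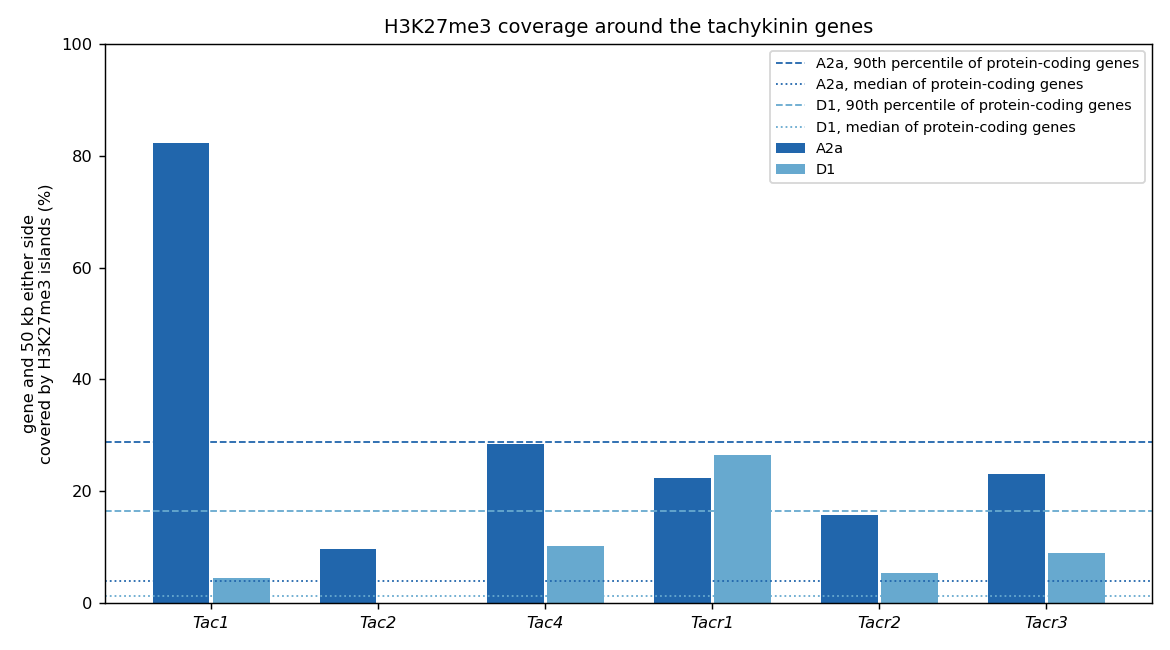
Percent of each gene and 50 kb on either side covered by H3K27me3 islands in A2a (dark blue bars) and D1 (light blue bars), with the median (dotted) and 90th percentile (dashed) of 21951 protein-coding genes in each list. *Tac1* in A2a, at 82.2%, is far above the 90th percentile of 28.7%, and *Tacr1* is the gene with the larger share in D1, 26.5% against 22.4%.

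Wherever both marks were listed at the promoter of a member, the H3K4me3 peak lay wholly or almost wholly within the island. The islands there were longer than the peaks. The share over other genes with both marks was not computed, so this is not read as a trait of the family. The peak was under an island over 100% of its length at *Tac1*, *Tac2*, *Tacr1* and *Tacr3* in A2a and at *Tacr1* and *Tacr3* in D1, and over 99.1% at *Tac1* in D1. At *Tac4* 0 bp of the peak were under an island in either list. Since each list pools nuclei, marks on the same nucleosomes and marks on different nuclei of the pool cannot be told apart.

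The promoter windows of the family ranged in CpG content from percentile 10.8 (*Tac2*) to 63.0 (*Tac1*) of protein-coding genes. The ratio of observed to expected CpGs was 0.49 at *Tac1*, 0.41 at *Tacr3*, 0.37 at *Tacr1*, 0.31 at *Tacr2*, 0.28 at *Tac4* and 0.12 at *Tac2*, against a median of 0.40 over 21938 protein-coding genes. In A2a, windows with both marks had a median of 0.49, windows with H3K4me3 alone 0.53, windows with H3K27me3 alone 0.25 and windows with neither 0.16. *Tac1* was at the median of its class in A2a, *Tac2* was below the 5th percentile of that class (0.26), and *Tac4*, at 0.28, was at the 5th percentile of windows with H3K4me3 alone. The upstream *Tac4* peak itself had a ratio of 0.87 in A2a and 0.90 in D1, at percentiles 94.5 and 95.6 of peaks, and the upstream *Tac2* peak 0.31 and 0.15, at percentiles 18.2 and 3.85. The 2 upstream peaks were thus far apart in CpG content.

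**Figure D5:**
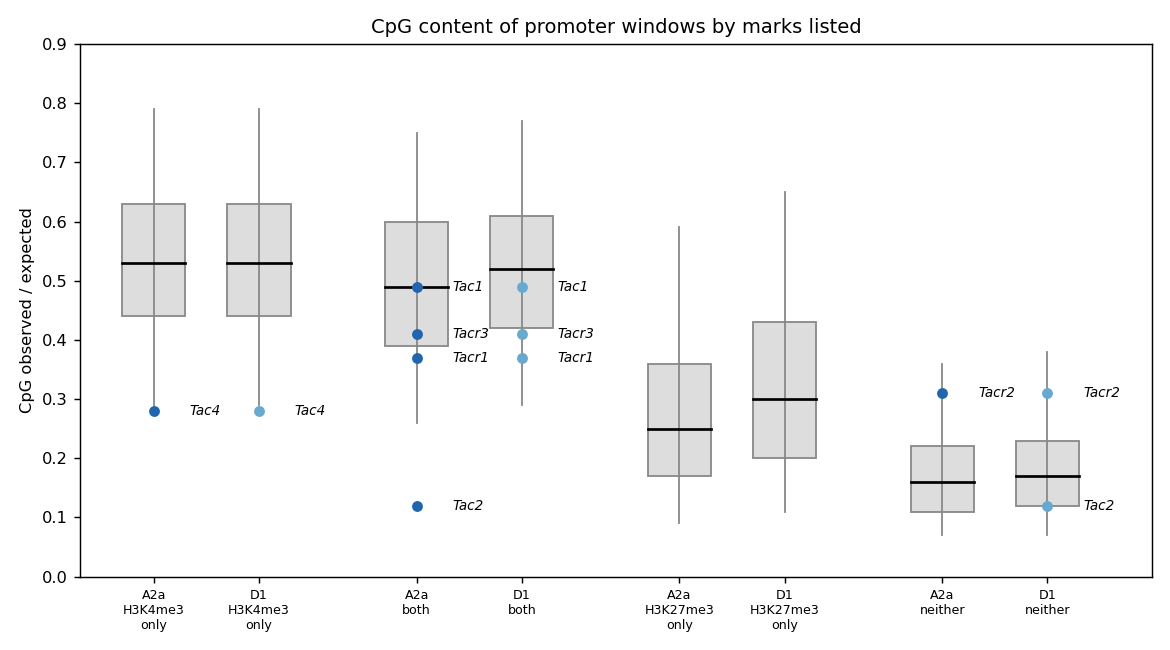
Ratio of observed to expected CpGs in promoter windows of protein-coding genes, by the marks listed in A2a and D1 (line, median; box, 25th to 75th percentile; whisker, 5th to 95th), with the 6 genes as points. *Tac1* (0.49), *Tacr3* (0.41) and *Tacr1* (0.37) stand in the class with both marks in both lists, and *Tac2* (0.12) in that class in A2a alone.

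All 6 genes matched RefSeq, which starts *Tac1* 182 bp and *Tacr1* 141 bp downstream of the GENCODE start and the other 4 at the same base. In 32851 RefSeq promoters of 300 bases (GRCm38), the letters TATAAA, searched on both strands like the others, were in 13.6%, and of the family they were in *Tacr3* alone, 29 bases before its start. CCAAT was in 37.4% of promoters and in those of *Tac1*, *Tac2* and *Tacr2*, and GGGCGG in 35.7% and in those of *Tac1*, *Tac4* and *Tacr2*. TGACG, which is part of the cyclic AMP response element, was in 20.8% of promoters and in those of *Tac1*, *Tacr1* and *Tacr3*. These matches are of letters in a window and were not tested as binding sites.

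Genes that make, degrade or relay tachykinins were mostly marked by H3K4me3 alone, 13 of 17 in A2a, where 48.7% of protein-coding genes were, and 14 of 17 in D1, where 50.2% were. All 6 genes that process peptide precursors (*Pcsk1*, *Pcsk1n*, *Pcsk2*, *Scg5*, *Cpe*, *Pam*) and all 8 that couple or desensitize the receptors (*Gnaq*, *Gna11*, *Plcb1*, *Plcb3*, *Plcb4*, *Grk2*, *Arrb1*, *Arrb2*) had a promoter peak in both lists. Of 3 genes for enzymes that degrade tachykinins, *Ece1* and *Ace* had a peak in both lists, and *Mme*, which encodes neprilysin, had none in either. Over the 17 genes, 16 had a peak in A2a, where 58.2% of protein-coding genes had one, and 16 in D1, where 55.8% did. Their median percentile was 78.7 in A2a and 67.9 in D1. The 6 family members had 39.8 and 35.4, and all protein-coding genes 44.5 and 35.7. Promoter islands were listed at 4 of the 17 in A2a and at 2 in D1, close to the shares of all protein-coding genes (21.6% and 15.3%). The prohormone convertase gene *Pcsk1* had islands of 3.6 kb in A2a and 2.8 kb in D1. The phospholipase C gene *Plcb4* had islands of 75.6 kb with 9455 reads in A2a and 38.6 kb with 2868 reads in D1, at percentiles 99.9 and 99.7. *Mme* (4.2 kb) and *Ace* (3.2 kb) had an island in A2a alone.

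The protein-coding genes that start within 50 kb of a family member were 8, of which 6 lay near *Tac2*. *Zbtb39*, 15.1 kb from *Tac2*, and *Kat7*, 48.7 kb from *Tac4*, had H3K4me3 alone in both lists, at percentiles 76.1 and 71.2 in A2a. *Tspan15* near *Tacr2* had both marks in both lists. *Rdh1* and *Rdh16f1* near *Tac2* shared their A2a island of 2.0 kb and had no entry in D1. *Myo1a*, *Gpr182* and *Rdh9*, also near *Tac2*, had neither mark in either list. A further H3K4me3 peak in both lists, beginning at −48.2 kb from *Tac2*, lay over exons of *Nemp1* and of the antisense gene *Gm16230*. The 5′ end of *Gm16230*, on the minus strand, is at −47754 bp, within the peak. *Tacr1* and *Tacr3*, like *Tac1*, had no other protein-coding gene starting within 50 kb.

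By Euclidean distance over the 4 percentiles (2 marks in 2 lists, with 0 where none was listed), each gene was compared with 20806 autosomal protein-coding genes. The genes nearest to *Tac1* were *Tshz2*, *Slc35d3* and *Cemip*, at distances of 9.81, 12.2 and 14.9 percentile points. The nearest to *Tac2* were *Slc15a2*, *H2-M5* and *H2-K1* (6.38 to 7.70 points), and to *Tac4* they were *Tbkbp1*, *1700016H13Rik* and *Tcerg1l* (0.136 to 0.479 points). *Tacr1* was nearest to *Colec12*, *Gab1* and *Cbfb* (4.2 to 5.19 points), and *Tacr3* to *Angpt1*, *Ajuba* and *Acer2* (5.88 to 6.63 points). *Tac1* was thus the family member with the most distant neighbours, while *Tacr2*, with no entry at its promoter, was tied with 5698 genes. These distances are over 4 values per gene and describe likeness of rank only.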

How the data were processed

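CnR libraries of H3K4me3 (Abcam antibody) and H3K27me3 (Active Motif antibody) were analysed from 4 deposited lists, each of which pools 2 replicates. Per the labels and the methods of the study, reads were mapped to mm10 with Bowtie2 (version 2.1.0), kept at a mapping quality of at least 20 and deduplicated with Picard, and SAMtools (version 0.1.19) was used. The authors called H3K4me3 peaks with MACS2 (q-value of 0.01), and each deposited peak has a fold enrichment, which is a ratio to the local background, and the −log10 of its q-value. The authors called H3K27me3 islands with SICER (window 200 bp, gap 600 bp, false discovery rate 0.01) against a control library that is not given in the sources used here, and the deposited value of an island is its count of reads, not normalized. A stronger or deeper library gives more and longer entries. The study gives only a range of depths over its samples and the lists hold no library totals, so the depth of each list is unknown. The paper reports that signal in peaks, scaled to total mapped reads, was greater in A2a than in D1 for both marks. Its authors hypothesize that cell number, mouse age, immunoprecipitation, amplification or batch lay behind this, and not biology. After they normalized on genes of constant expression, they report equal global signal in both cell types. The lists read here do not carry that normalization.

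Genes came from GENCODE vM21 on GRCm38, and all 148477 entries on the main chromosomes ended within its chromosome lengths. Coordinates are counted from 1. An entry counted from an overlap of 1 bp. Read intervals are exact Poisson intervals at the 95% level and cover counting error only. The family is 6 genes. The genes named are these, 17 pathway genes, protein-coding genes starting within 50 kb of a member, and the 3 nearest genes by percentile. All these, 24 cell type markers and the tests were chosen with earlier results of these data known. No test across mice was possible, and 20 samples were not used here. The counting was tested on simulated data. Columns of sample values left unmapped were 0. Alternatives changed the window, TSS, overlap, thresholds, merging, flanks and ranking. Sequences were read from GRCm38, and promoter letters from RefSeq promoters. The software was Python 3.11.15 with numpy 2.4.6, scipy 1.17.1 and matplotlib 3.10.9.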

Additional observations from a re-analysis of the deposited data

How the results depend on the processing

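The 8 counts of marked family members were recomputed under 42 alternatives, and 40 stayed within 1.5 times the reported count. The exceptions were both in the number of promoters with an H3K4me3 peak in A2a, which fell from 5 to 3 with a window of 1 kb either side of the TSS and to 3 with a minimum overlap of 200 bp. *Tac2* and *Tac4* were lost, whose peaks reach the window by 31 and 174 bp. In D1 the same count fell from 4 to 3 under both alternatives, with *Tac4* lost, which is within 1.5 times. No gene then had H3K4me3 alone at the promoter in either list. Under both alternatives 3 genes had both marks in A2a and 3 in D1. The difference between the lists in that count, which is *Tac2*, was then gone. With a window of 5 kb either side, *Tac2* had a peak in both lists and *Tacr2* gained an island in A2a. An alternative chosen after seeing the data kept only as many of the strongest A2a entries as D1 has (20080 peaks, 45760 islands), and the 4 A2a counts stayed at 5, 4, 4 and 4.

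Of the differences at single genes, 4 changed direction. The *Tac1* H3K4me3 rank, −12.7 percentile points in A2a minus D1, was 8.45 when peaks were ranked by fold enrichment. The *Tacr3* island rank, 18.0 points, was −0.650 by reads per kb. Relative to the list means, the density ratios of *Tacr1* (1.31) and *Tacr3* (1.63) became 0.762 and 0.953. With as many A2a islands as D1 has, the A2a excess in covered length at *Tacr2* was 4.6 kb in place of 11.8 kb, and with flanks of 20 kb that at *Tac4* was 7.2 kb in place of 19.8 kb and that at *Tac1* 40.7 kb in place of 86.2 kb. The difference in covered length at *Tacr1* (−10.4 kb, A2a minus D1) ran from −12.6 to −1.80 kb over its alternatives. The cause of these changes was not tested. No paired analysis was possible because each list pools its replicates, and for the same reason no replicate could be left out. Depth limits every absent entry, since reads under the callers' thresholds are not in the lists.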
